A study of Ursus arctos with 12 samples.

Results

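Platelet-derived growth factors and their receptors were examined together with markers of fibro-adipogenic progenitors, the connective tissue cells that lie between muscle fibres, in muscle of brown bears in summer and in winter. The members were the rows of the count table whose symbol was on a list of 10 genes, and 9 were found among 30249 rows: the ligands PDGFB, PDGFC and PDGFD, the receptors PDGFRA and PDGFRB, and the markers PI16, DPP4, CD34 and TCF7L2. PDGFA was not analysed here. The libraries came from 6 free-ranging brown bears (Ursus arctos) aged 2 to 3 years. The summer group held 1 biopsy per bear from the active period and the winter group 1 from hibernation of the same bear, without treatment or genetic change in either group. Tissue came from the vastus lateralis of the thigh. It holds fibres, vessels, nerve and connective tissue, so fewer cells of a type and less RNA per cell cannot be told apart. The winter animals were also inactive and fasting, and season, inactivity and fasting cannot be told apart.

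PDGF ligands are secreted dimers that bind 2 receptor tyrosine kinases. PDGFB is made largely by endothelial cells and draws pericytes, which carry PDGFRB, to the vessel wall. PDGFC and PDGFD are secreted as latent proteins and become active once their CUB domain is cut off, after which PDGFC binds mainly PDGFRA and PDGFD mainly PDGFRB. In skeletal muscle PDGFRA is the usual surface marker of fibro-adipogenic progenitors, which can form matrix-producing fibroblasts or adipocytes. PI16 and DPP4 mark a subset of adventitial and perimysial fibroblasts, CD34 marks both these stromal cells and capillary endothelium, and TCF7L2 is a Wnt-pathway transcription factor used to mark connective tissue fibroblasts.

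Depth ran from 16742406 to 32140160 counted reads per library, and each of the 9 members had a read in every library, from 52 reads (PI16, in winter) to 5543 (CD34, in summer). Levels are given as CPM (reads scaled by TMM to a common library size) and differences on the log2 scale. The muscle label held: the fibre genes ACTA1, TTN and CKM had at least 109988 reads in every library. The winter library of bear 1509 stood apart on the second principal component (98.6, the others from −29.4 to 8.16), so counts of calls are also given without it where they differ.

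In winter, 4 of the 9 members fell and 0 rose, by edgeR's quasi-likelihood test at an adjusted p below 0.05 (by DESeq2 0 rose too, and 0 were higher at an unadjusted p below 0.05). The 4 called at the adjusted limit were PDGFB, PI16, DPP4 and CD34, and each was lower in 6 of 6 bears. Over all 17290 genes tested, 39.5% were called, 19.9% lower and 19.6% higher. The median log2 fold change of the members was −0.62 against −0.00 for all genes tested. All 4 calls also passed the stricter limits of the study (adjusted p below 0.01 together with a level over 1.3 or under 0.77 times that of summer), which 12% of genes passed on the lower side. Without the winter library of bear 1509 the count was again 4, and 3682 genes were lower and 3457 higher over all genes. In a fit with each bear as its own block (the blocked fit) the count was 5, PDGFRB being the addition, where 21.2% of genes were lower. Of all genes, 19.0% were lower in each of the 6 bears, as these 4 members were.

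**Figure D1:**
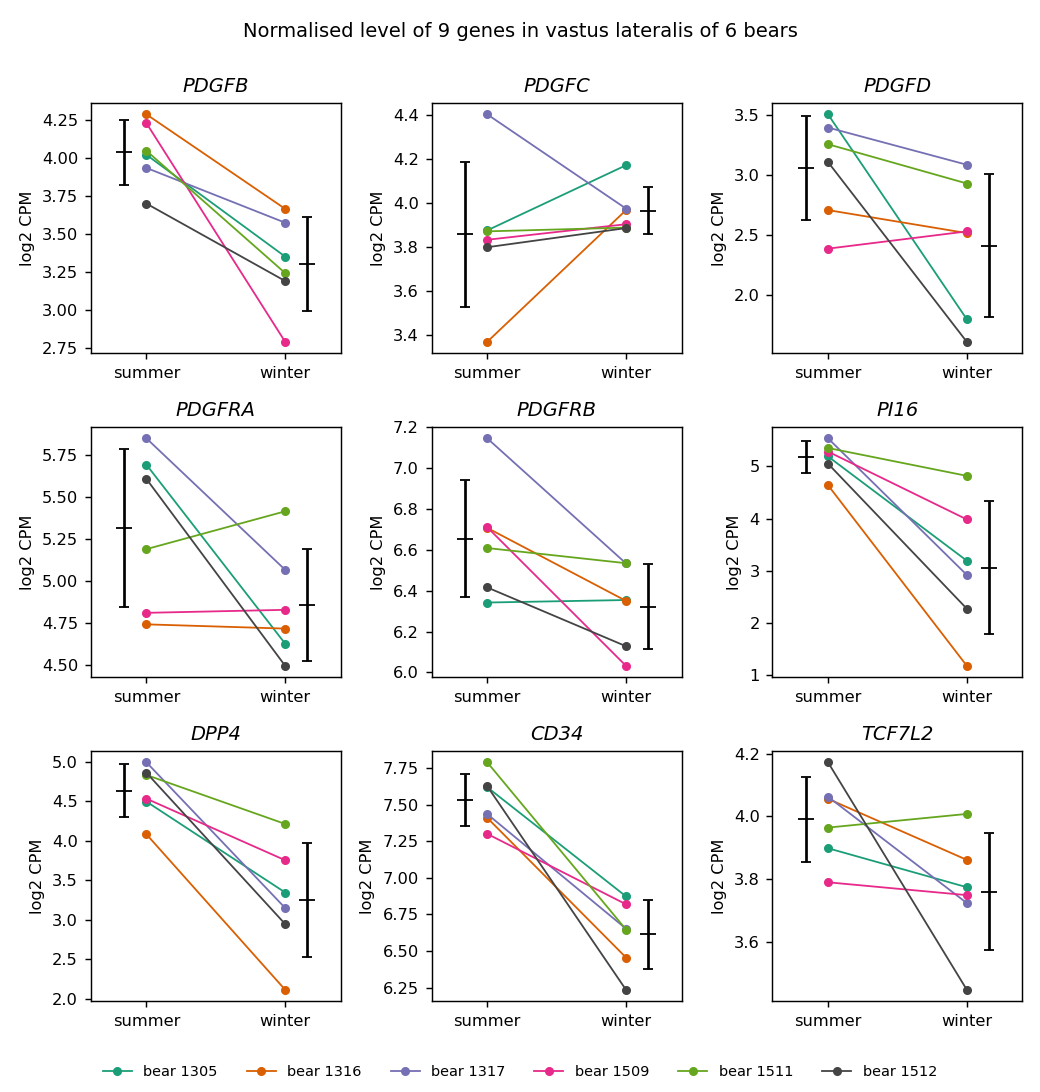
Normalised level (log2 CPM) of the 9 members in summer and winter, with 1 line per bear and the mean ± SD of the 6 libraries of a season in black; each panel has its own axis. The lines of PDGFB, PI16, DPP4 and CD34 fall in every bear, whereas those of PDGFC go both ways.

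Of the ligands, PDGFB was at 12.9 CPM in its lowest summer library, 16.3 at the median and 19.4 in its highest. In winter the corresponding levels were 6.84, 9.75 and 12.6 CPM. The seasons did not overlap, which held for 2 of the 9 members (PDGFB and CD34). All winter libraries lay below all summer libraries for 8.21% of the genes tested. The log2 fold change of PDGFB was −0.72 (standard error, SE, 0.15, adjusted p = 0.00204 in edgeR), a level 0.606 times that of summer with a 95% interval of 0.484 to 0.759. Single bears changed by −1.44 to −0.36, bear 1509 the most, and the log2 fold change was −0.63 without its winter library.

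PDGFC behaved otherwise. It stood at 10.3, 14.4 and 21.1 CPM in the lowest, median and highest summer library and at 14.7, 15.2 and 18.0 CPM in winter, so the winter libraries lay within the range of the summer ones. Its log2 fold change was 0.08 (SE 0.14, adjusted p = 0.688 in edgeR), with an interval of −0.23 to 0.39. The value was −0.02 with library totals in place of TMM and −0.00 without bear 1316, so no direction can be given. Bear 1316 had the highest difference, 0.60, and bear 1317 was the only bear that was lower in winter, at −0.43.

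PDGFD, the other latent ligand, was lower in 5 of 6 bears and was not called. Its level ran from 5.14 to 11.3 CPM in summer (median 8.99) and from 2.96 to 8.39 CPM in winter (median 5.66), and the seasons overlapped. Its estimated change was −0.62 (SE 0.27, adjusted p = 0.0777 in edgeR). Bears 1305 and 1512 differed by −1.71 and −1.50 between seasons and the other 4 by −0.33 to 0.14. The adjusted p was 0.0338 in blocked DESeq2 and 0.0414 in limma voom, but 0.262 without bear 1305. The change of PDGFC exceeded that of PDGFD by 0.76 ± 0.88 on the log2 scale (SD, n = 6 bears), positive in 4 of 6 bears, and this difference did not pass a two-sided exact permutation test over bears (p = 0.125, 0.25 adjusted over 2 differences, smallest possible p 0.03125).

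Neither receptor was called in the fit without the bear. PDGFRA stood at 26.7, 42.6 and 57.6 CPM in the lowest, median and highest summer library and at 22.5, 27.3 and 42.6 CPM in winter. Bears 1305, 1317 and 1512 had the 3 highest summer levels (51.7, 57.6 and 48.7 CPM) and winter differences of −1.06, −0.78 and −1.11 on the log2 scale. Bears 1316, 1509 and 1511, with 26.7, 28.01 and 36.4 CPM in summer, were at −0.03, 0.02 and 0.22. Each difference contains the summer level of its bear, so a high summer level by itself favours a negative difference. This split of the bears was not tested. Over all bears the estimate was −0.49 (SE 0.21, adjusted p = 0.0772 in edgeR), with an interval of −0.94 to −0.04. The intervals, unlike the adjusted p, take no account of the number of genes tested. PDGFRA passed only without bear 1511 (−0.65, adjusted p = 0.0336), and its adjusted p lay between 0.0336 and 0.242 over the alternatives.

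PDGFRB, a receptor of pericytes and other mural cells though not of these alone, ran from 81.0 to 141.5 CPM in summer (median 101.0). In winter PDGFRB ran from 65.3 to 92.6 CPM (median 81.6). It was lower in 5 of 6 bears, while bear 1305 was at 0.01. Its estimate was −0.35 (SE 0.14, adjusted p = 0.0605 in edgeR), an interval of 0.641 to 0.966 times the summer level. In the blocked fit it passed at −0.33 (SE 0.12, adjusted p = 0.0425), as it did in blocked DESeq2 (0.034) and with library totals (0.0354), but its adjusted p was 0.175 without bear 1509.

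Whether the winter differences of the receptors were unequal was asked within each bear. The difference of PDGFRA minus that of PDGFRB was −0.12 ± 0.70 (SD, n = 6 bears), negative in 3 of 6, with single bears from −1.08 to 0.70 (exact permutation test, two-sided, p = 0.719). Within libraries, PDGFRB had 1.57 to 3.91 reads per PDGFRA read in summer and 2.17 to 3.31 in winter, values not corrected for transcript length. Bear 1305 went from 1.57 to 3.31 and bear 1509 the other way, from 3.74 to 2.30.

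**Figure D2:**
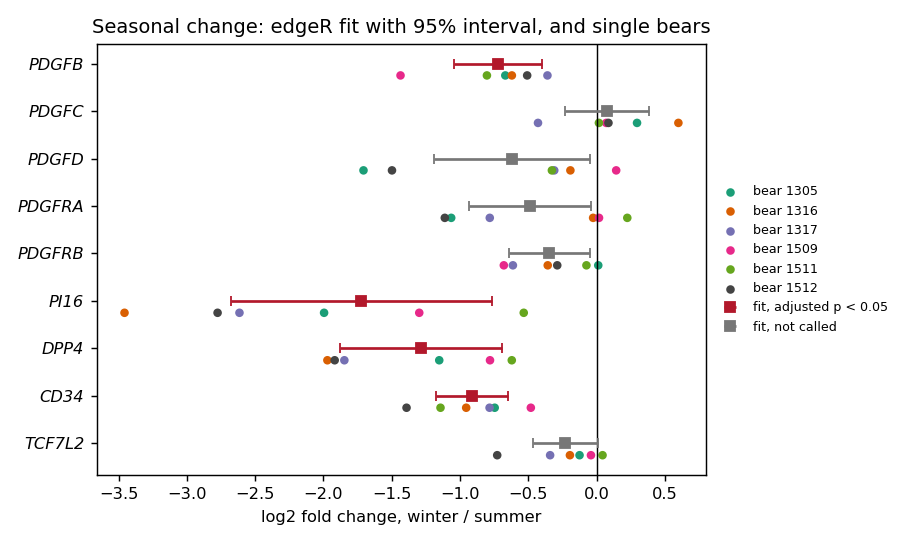
Log2 fold change of winter over summer for the 9 members. Squares with bars give the edgeR estimate and its 95% interval (red where the adjusted p was below 0.05, grey otherwise), and the small points under each give the 6 bears, which spread from −3.46 to −0.53 for PI16 and from −1.39 to −0.48 for CD34.

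Among the progenitor markers, PI16 had the largest estimated change. PI16 encodes a secreted peptidase inhibitor of the CAP family. It stood at 24.9, 37.6 and 46.3 CPM in the lowest, median and highest summer library, and at 2.18, 8.28 and 28.1 CPM in winter. Only the winter library of bear 1511 (28.1 CPM) reached the summer range, and that of bear 1316, at 52 reads, was the lowest. The log2 fold change was −1.72 (SE 0.44, adjusted p = 0.0075 in edgeR), or 0.303 times the summer level, with an interval of 0.157 to 0.587. In the blocked fit it was −2.09 (adjusted p = 0.000697), and without bear 1511 −2.20 (0.00142).

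DPP4, a membrane-bound dipeptidyl peptidase that trims chemokines and incretins, fell alongside. The levels were 16.9, 25.8 and 31.8 CPM in summer (lowest, median, highest) and 4.24, 9.43 and 18.5 CPM in winter. Again the winter library of bear 1511 alone exceeded the lowest summer library. This was a log2 fold change of −1.28 (SE 0.28, adjusted p = 0.0025 in edgeR), which is 0.411 times the summer level with an interval of 0.272 to 0.62, and single bears changed by −1.97 to −0.62.

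In the winter libraries the bears had the same order for PI16 and DPP4, from bear 1511 down through 1509, 1305, 1317 and 1512 to 1316 (Spearman's rho = 1.0, exact permutation p = 0.00278; Pearson's r = 0.995, exact permutation p = 0.00139, n = 6). Without the 2 bears farthest from the median, r was 0.99. In summer r was 0.817 (exact permutation p = 0.0458) and rho 0.657 (exact permutation p = 0.175), and r was −0.19 without the 2 farthest bears, so the summer relation rested on those. Over the 72 correlations of member pairs by season, the lowest adjusted p was 0.1 for r and 0.2 for rho, both for this pair in winter, and 0 passed. PDGFRA and PDGFD stood at r = 0.864 and rho = 0.829 in summer (exact permutation p = 0.0292 and 0.0583, r = 0.414 without the 2 farthest bears). Their winter values were r = 0.848 and rho = 0.943 (exact permutation p = 0.0319 and 0.0167, r = 0.753 without these 2), with adjusted p from 0.55 to 0.7.

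**Figure D3:**
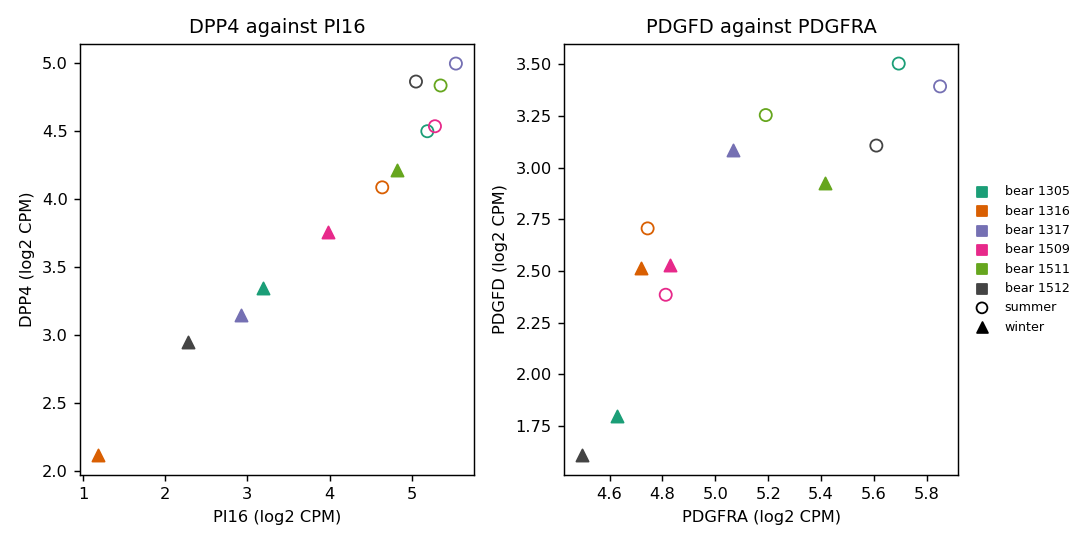
Level of DPP4 against PI16 and of PDGFD against PDGFRA (log2 CPM), with 1 colour per bear, open circles for summer and filled triangles for winter. The winter triangles of PI16 and DPP4 lie in a row in which bear 1511 is highest and bear 1316 lowest.

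Set against PDGFRA in the same library, both markers had lower read ratios in winter, a comparison chosen after the values were seen and given without a test. PI16 had 67.9 to 138.6 reads per 100 PDGFRA reads in summer (median 86.8) and 8.32 to 65.96 in winter (median 29.6), lower in 6 of 6 bears. For DPP4 the range was 43.6 to 82.5 (median 61.4) in summer and 16.2 to 47.3 (median 37.4) in winter, also lower in 6 of 6 bears, though bear 1305 changed by only −0.09 on the log2 scale. PI16 per 100 DPP4 reads went from a median of 146.4 to 87.6, lower in 5 of 6 bears.

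CD34, a sialomucin of progenitors and capillary endothelium, had the narrowest relative spread of the 4 genes called. Its level was 157.6, 184.8 and 221.2 CPM in summer and 75.3, 100.3 and 117.1 CPM in winter (lowest, median, highest). Across bears the change was −0.91 on the log2 scale (SE 0.12, adjusted p = 9.24e-05 in edgeR), or 0.532 times the summer level with an interval of 0.444 to 0.637. Single bears lay from −1.39 in bear 1512 to −0.48 in bear 1509, and the adjusted p was at most 0.000695 over the alternatives. PDGFB, itself made largely by endothelium, had 6.54 to 11.8 reads per 100 CD34 reads in summer (median 8.50) and 6.06 to 14.4 in winter (median 10.6). This ratio, chosen after the values were seen and not tested, was lower in 1 of 6 bears, bear 1509, and higher in the other 5.

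TCF7L2 was at 13.7 to 17.96 CPM in summer (median 16.04) and 10.8 to 16 CPM in winter (median 13.5). It was lower in 5 of 6 bears, by 0.73 on the log2 scale in bear 1512, and bear 1511 was at 0.04. The log2 fold change of −0.23 (SE 0.11, adjusted p = 0.117 in edgeR) was not called, and its interval of −0.47 to 0.01 holds 0. The adjusted p was 0.0608 to 0.38 over the alternatives.

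The pathway around the members was read from lists of genes. Their counts of calls are to be read beside the shares of all genes tested, 19.9% lower and 19.6% higher. Of the 10 tested genes on the list for ligand processing and matrix release, 6 fell and 0 rose in edgeR (0 rose at an unadjusted p below 0.05 or in DESeq2). Their median log2 fold change was −0.67. SPARC, a matrix protein that binds PDGFB, fell by 3.06 on the log2 scale (SE 0.35, adjusted p = 3.12e-05), HSPG2, the heparan sulfate proteoglycan perlecan, by 2.00 (adjusted p = 0.000277) and the proprotein convertase PCSK5 by 1.76 (adjusted p = 0.000182), all in edgeR and in 6 of 6 bears. Of the other convertases, PCSK6 was at −1.67 (adjusted p = 0.000205), while FURIN (0.15, adjusted p = 0.471) and PCSK7 (0.07, adjusted p = 0.722) were not called. PLAT and PLAU, enzymes that free PDGFC and PDGFD, were not called either. PLAT was at −0.27 (adjusted p = 0.497) and PLAU at −0.49 (adjusted p = 0.13, 0.0328 in the blocked fit). The cell-surface proteins LRP1 (−0.86, adjusted p = 0.0253) and NRP1 (−0.43, adjusted p = 0.0263), also on this list, fell. LRP1 was not called without bear 1305 (0.0926), nor NRP1 without bear 1317 (0.0901). These genes were named after their values were seen. ST14, also on the list, had under 30 reads and was not tested.

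Among the 22 receptor adaptors and effectors tested, 5 rose and 3 fell, with a median of 0.14. These counts were near the shares over all genes tested (19.6% higher and 19.9% lower). In the blocked fit 4 rose and 3 fell, as PIK3CB was not called there (adjusted p = 0.0544), and without the winter library of bear 1509 5 rose and 4 fell. In that last fit neither PIK3CB nor YES1 was called (adjusted p = 0.0701 and 0.0726), while PLCG1 and STAT5A were called higher (0.0135 and 0.0432) and FYN lower (0.0392). The adaptor GRB2 rose by 0.44 (adjusted p = 0.00346), its exchange factor SOS2 by 0.44 (adjusted p = 0.0149) and CRKL by 0.40 (adjusted p = 0.00433). The kinase SRC fell by 1.202 (SE 0.24, adjusted p = 0.00127), SOS1 fell by 0.46 (adjusted p = 0.00889) and the adaptor NCK1 fell by 0.44 (adjusted p = 0.00722). SOS2 was not called without bear 1305 (adjusted p = 0.0515). The paralogs SOS1 and SOS2 thus had opposite signs, in 6 of 6 and 5 of 6 bears.

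The brakes on receptor signalling also had calls in both directions. Of 14 genes, 5 fell and 2 rose, with a median of −0.29, and without the winter library of bear 1509 7 fell. SPRY4 and SPRY2, inhibitors that growth factor signalling itself induces, fell by 2.31 (SE 0.33, adjusted p = 0.000146, 8 to 135 reads) and by 1.04 (adjusted p = 0.00271, 27 to 147 reads), both in 6 of 6 bears. Their relative SPRY1, with more reads (679 to 1949), was at −0.09 and not called (adjusted p = 0.755). SOCS3 fell by 1.29 (adjusted p = 0.0178, and 0.0773 without bear 1509). LRIG1 rose by 0.62 (adjusted p = 0.00159) and the phosphatase PTPN1 by 0.60 (adjusted p = 0.00151), in 6 of 6 bears each.

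Of the 5 relatives of the PDGF ligands in the VEGF family, 3 fell and 1 rose (median −0.78), and VEGFC was at −0.18 (adjusted p = 0.479). VEGFA fell by 1.19 (adjusted p = 1.89e-05), VEGFD fell by 1.02 (adjusted p = 0.000274) and VEGFB fell by 0.78 (adjusted p = 0.00225), while PGF, at 22 to 108 reads, rose by 1.66 (SE 0.22, adjusted p = 8.77e-05). Of the 3 other class III receptor tyrosine kinases, only CSF1R, the macrophage receptor, was called in edgeR (−0.65, adjusted p = 0.0355), and it was not called without the winter library of bear 1509 (0.058).

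**Figure D4:**
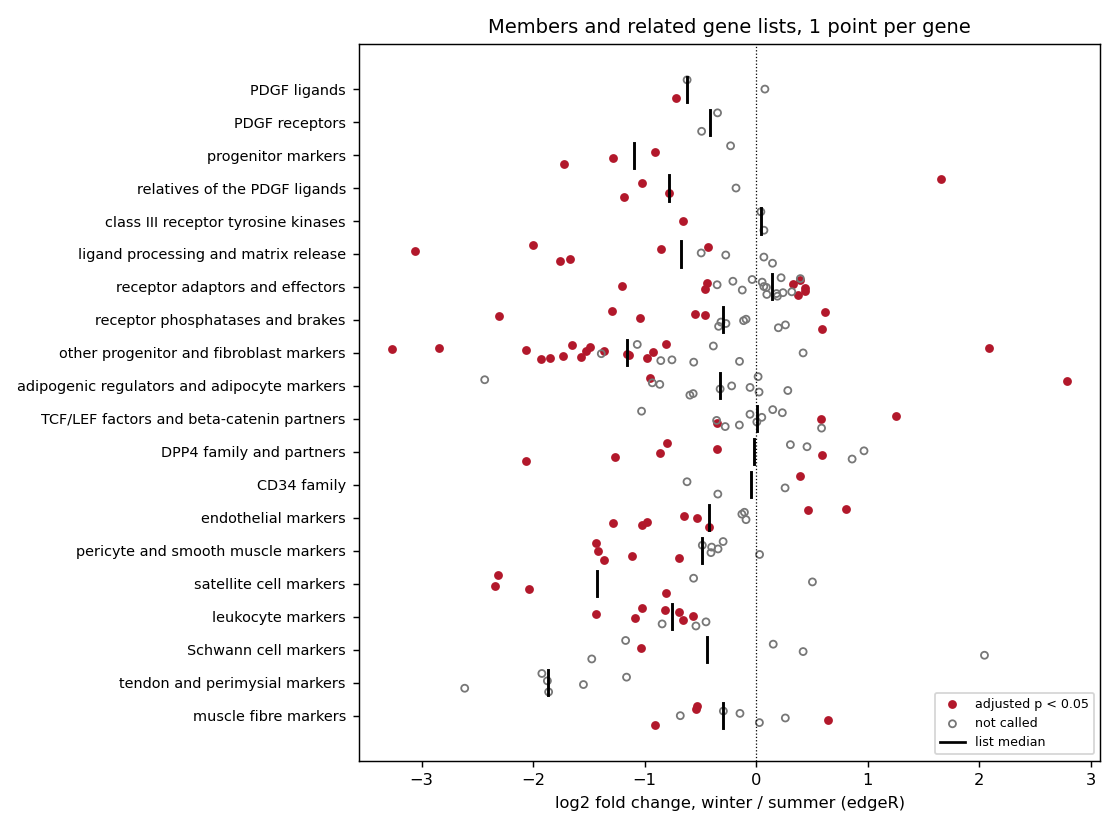
Log2 fold change of winter over summer for the members and for each gene list, 1 point per gene (red where the adjusted p was below 0.05), with the list median as a bar. Most points of the progenitor and fibroblast markers lie below 0, with CXCL14 at 2.09 as the only one called higher.

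Of 25 other markers of fibro-adipogenic progenitors and fibroblasts, 16 fell and 1 rose, with a median log2 fold change of −1.16, and 19 fell in the blocked fit and 17 without the winter library of bear 1509. ADAM12, a metalloprotease of activated stroma, fell by 3.26 (SE 0.50, adjusted p = 0.000229, 3 to 141 reads), COL15A1 by 2.85 (adjusted p = 1.28e-05) and FAP, the closest relative of DPP4, by 2.06 (adjusted p = 0.000176). The chemokine CXCL14 rose by 2.09 (SE 0.29, adjusted p = 0.000101) in 6 of 6 bears. The progenitor transcription factors OSR1 (−0.56, adjusted p = 0.21, 7 to 61 reads) and HIC1 (−0.85, adjusted p = 0.0596, 7 to 45 reads) were not called. DCN (−0.75, adjusted p = 0.0848, 3237 to 21076 reads) and FBN1 (−1.39, adjusted p = 0.0606, 803 to 12679 reads) were not called either, at more reads. CD55 (0.42, adjusted p = 0.564) and PCOLCE2 (−0.38, adjusted p = 0.613) were each lower in 4 of 6 bears and not called. The same held for the calls of OSR2 (−0.15, adjusted p = 0.797) and TWIST2 (−1.07, adjusted p = 0.264). HIC1, DCN and FBN1 passed in the blocked fit (0.0386, 0.0104 and 0.00391).

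Outside FAP, the relatives and partners of DPP4 included DPP9, which fell by 0.87 (adjusted p = 0.000699), and DPP8, which rose by 0.59 (adjusted p = 0.00698). Over the 10 genes tested 5 fell and 1 rose. One of the 5, DPP7 (−1.27, adjusted p = 0.0381), had 1 to 8 reads per library and was not called in DESeq2 (0.099), without the read filter (0.0623) or without the winter library of bear 1509 (0.0545), where 4 fell. Of CD34's relatives and partners, 1 of 4 rose, the adaptor CRKL given above. PODXL was at −0.34 (adjusted p = 0.0572, and 0.00988 without the winter library of bear 1509). Around TCF7L2, 2 of 13 genes rose and 1 fell (3 rose without the winter library of bear 1509, TCF7 being added at an adjusted p of 0.0278), with the corepressor TLE1 up by 1.26 (SE 0.15, adjusted p = 4.54e-05), PYGO1 up by 0.58 (adjusted p = 0.0117) and CTNNB1, which encodes β-catenin, at −0.35 (adjusted p = 0.0165, and 0.0605 without bear 1317). In the adipogenic list, 1 of 13 fell, FABP4 (−0.95, adjusted p = 0.0073), and 1 rose, LEP. LEP had 0 to 19 reads and was not called in the blocked fit (adjusted p = 0.0629). The summed level of this list was 363.8 to 1468 CPM in summer and 273.6 to 538.4 CPM in winter, lower in 6 of 6 bears. FABP4, which capillary endothelium also expresses, made up most of that sum, with a mean of 460.6 CPM in summer and 238.4 CPM in winter. ADIPOQ was lower in 3 of 6 bears, PLIN1 in 2, CFD in 3 and CIDEC in 4, and none of these was called in edgeR. CIDEC was at −2.43 (adjusted p = 0.0553, 8 to 1346 reads) and passed without bear 1511 (−3.29, adjusted p = 0.0282). PPARG, the master regulator of adipogenesis, was at −0.59 (adjusted p = 0.163).

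Several of the members are shared by other cells of the biopsy, and markers of these cells are given here without a test of their relation to the members. Of 11 endothelial markers 6 fell and 2 rose (median −0.42), and their summed level ran from 723.9 to 1034 CPM in summer and from 523.5 to 600.9 CPM in winter, lower in 6 of 6 bears. VWF fell by 1.28 (adjusted p = 3.69e-05), CDH5 fell by 1.03 (adjusted p = 0.000111) and KDR fell by 0.98 (adjusted p = 0.000307), while ERG rose by 0.46 (adjusted p = 0.00383) and CLDN5 by 0.81 (adjusted p = 0.0295, and 0.107 without bear 1317). These are the values that go with PDGFB and CD34, and their part in those results was not tested.

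For pericytes and smooth muscle, among the cells that carry PDGFRB, 5 of 11 markers fell and 0 rose in edgeR (0 rose at an unadjusted p below 0.05 or in DESeq2), led by CNN1 (−1.44, adjusted p = 0.0103), MCAM (−1.42, adjusted p = 0.000845) and RGS5 (−1.37, adjusted p = 9.03e-05). Their summed level ran from 637.8 to 802.9 CPM in summer and from 390.1 to 519.7 CPM in winter. Leukocyte markers, of which 7 of 10 fell and 0 rose in edgeR (0 rose at an unadjusted p below 0.05 or in DESeq2, and 6 fell without the winter library of bear 1509), summed to 68.8 to 121.4 CPM in summer and 44.4 to 77.1 CPM in winter, led by CD3E (−1.44, adjusted p = 0.0114, 2 to 24 reads), CD14 (−1.09, adjusted p = 0.0054) and LAPTM5 (−1.02, adjusted p = 0.003). Of the 6 satellite cell markers 4 fell, with CALCR at −2.34 (adjusted p = 0.0183, 0 to 8 reads), CHODL at −2.32 (adjusted p = 1.15e-05) and MYF5 at −2.04 (adjusted p = 0.000122). In the blocked fit 5 of them fell, and without the winter library of bear 1509 3 fell and 1 rose, CDH15 (0.70, adjusted p = 0.0313), while CALCR fell under the minimum of 30 reads and was not tested. Of the 6 Schwann cell markers 1 fell, S100B (−1.03, adjusted p = 0.0322, and 0.15 without bear 1316). MBP also fell in the blocked fit (adjusted p = 0.0237) and without the winter library of bear 1509 (0.00748), so that 2 fell in each. The summed level of the Schwann cell list went from 46.8 CPM in summer to 156.1 CPM in winter in bear 1509, whose winter library stood apart, and lay between 42.7 and 102.1 CPM in the other bears. Among 9 muscle fibre genes 3 fell and 1 rose, and their sum stayed between 107560 and 176300 CPM in summer and between 110800 and 152330 CPM in winter. The 3 were ACTA1 (−0.90, adjusted p = 0.0212, and 0.0834 without bear 1316), ACTN2 (−0.54, adjusted p = 0.00423) and ATP2A1 (−0.53, adjusted p = 0.00474), and TTN was the one that rose (0.65, adjusted p = 0.0036). In none of these lists was a matched marker at 0 in every library.

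Markers of tendon and perimysium, the dense connective tissue, varied most between biopsies. Their summed level was 168.6, 511.3 and 1189 CPM in the lowest, median and highest summer library and 6.01, 27.3 and 751.5 CPM in winter, lower in 6 of 6 bears. In the edgeR fit without the bear 0 of these 6 genes were called (2 were lower at an unadjusted p below 0.05, and DESeq2 called 0), and in the blocked fit 5 fell. The winter library of bear 1511, highest for PI16 and DPP4, also had the highest sum of these markers (751.5 CPM), and that of bear 1316, lowest for both, had the lowest (6.01 CPM). The progenitor and fibroblast markers gave the same extremes in winter, 2600 CPM in bear 1511 and 539.6 CPM in bear 1316. Without bear 1511 the log2 fold changes of PI16 and DPP4 were −2.20 and −1.48, and the part of the connective tissue share of a biopsy in them was not tested.

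**Figure D5:**
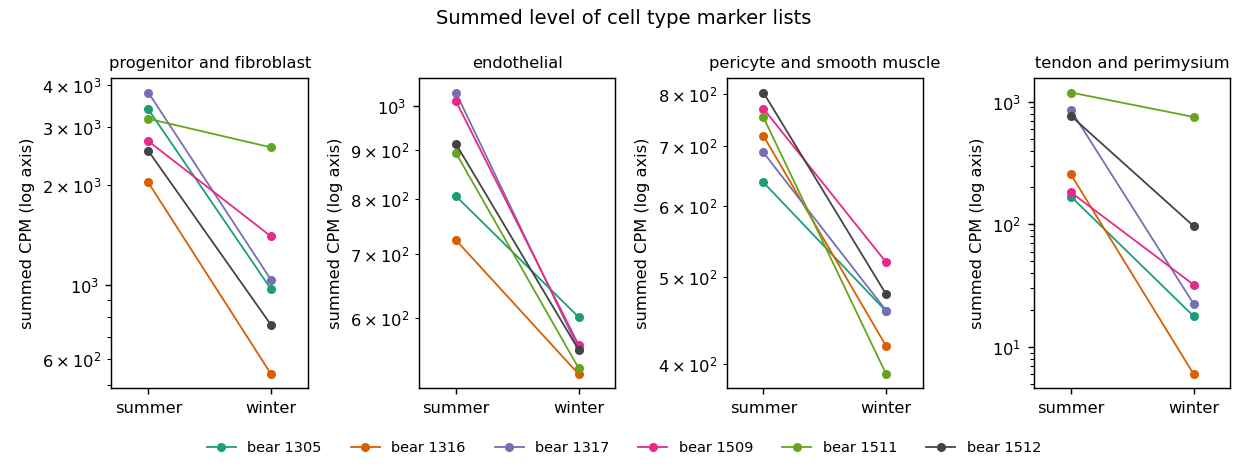
Summed level (CPM, log axis) of the markers of progenitors and fibroblasts, endothelium, pericytes and smooth muscle, and tendon and perimysium in summer and winter, with 1 line per bear; each panel has its own axis. Every line falls, and in winter the tendon markers run from 6.01 CPM in bear 1316 to 751.5 CPM in bear 1511.

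The genes whose level followed the receptors most closely over the 12 libraries were sought among 10344 named genes, as a description that includes the seasonal difference. For PDGFRA they were STXBP6 (r = 0.896), the complement protease C1R (r = 0.873), PDGFD (r = 0.866), PCDH18 (r = 0.848) and NOTCH2 (r = 0.847). For PDGFRB they were PLEKHG2 (r = 0.922), BCAR1 (r = 0.916), SIPA1L2 (r = 0.908), H6PD (r = 0.893) and MAML1 (r = 0.889). After the season means were taken out, TGFBR3 (r = 0.903), FOXO1 (r = 0.89), FBLN5 (r = 0.877), STXBP6 (r = 0.86) and COLEC12 (r = 0.849) were nearest to PDGFRA. INTS5 (r = 0.938), BCAR1 (r = 0.926), CASP9 (r = 0.921), PLBD2 (r = 0.911) and ADCY6 (r = 0.899) were nearest to PDGFRB. STXBP6 and BCAR1 appeared in both lists of their receptor, and the 2 receptors had no such gene in common.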

How the data were processed

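Poly(A) RNA was sequenced by the authors on stranded, single-end libraries. Per their methods and processing notes, reads were aligned to the brown bear assembly ASM358476v1 with TopHat2 (2.1.1) and counted per gene and strand with featureCounts (1.6.2). The deposited values are raw counts per gene, which the authors neither normalized nor filtered in this table. Where a row had only a LOC number, RefSeq's later annotation (UrsArc2.0) named 468 rows.

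Genes with at least 30 reads over the 12 libraries were tested (17290), scaled by TMM and fitted with season as the only term in edgeR 4.0.16 (glmQLFit, glmQLFTest; R 4.3.3), with Benjamini-Hochberg adjustment over all genes; every adjusted p without another name is from this fit. A call means an adjusted p below 0.05, the study's threshold. Log2 CPM used a prior count of 2. Alternatives were the bear as a replicate block, DESeq2 1.42.0, limma 3.58.1 voom, other scalings and filters, and each bear left out. Same-numbered libraries came from the same animal. Deviations from season means correlated at 0.0903 to 0.344 within bears. Between bears the median was −0.0634 and the highest value 0.142, so the ranges overlapped and these correlations alone do not identify each pair. The replicates are separate animals, and no 2 libraries of a season were copies (lowest chi-square per gene 35.8).

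Members and lists were chosen with earlier results of these data known. Named beside the members were, per list, up to 3 called genes in each direction with the largest change, and the 5 genes most correlated with each receptor. On simulated counts of this comparison (17060 genes, 200 changed), edgeR recovered 71% of 2-fold and 95% of 4-fold changes and called 4 others. The blocked fit recovered 61% and 91% and called 9 others. The changed genes were drawn from the better-covered ones, equally in both directions and without differences between bears. In the data 39.5% of genes were called, so these rates need not hold there.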

Additional observations from a re-analysis of the deposited data

Results flagged for a closer look

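In winter, PDGFC in bear 1305 (17.96 CPM) stood apart from the other 5 bears, which lay close together between 14.7 and 15.7 CPM. Its gap to the nearest bear made up 0.69 of the range on the log2 scale, above Dixon's 95% critical value of 0.625 for 6 samples. It was the only one of 27 sets of 6 values examined (summer, winter and change for each member) that exceeded it, and chance alone exceeds it in about 1 of 20 sets.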

How the results depend on the processing

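PDGFB, PI16, DPP4 and CD34 kept their direction and their call in all 15 alternatives, with adjusted p at most 0.00907, 0.0354, 0.0156 and 0.000695, and TCF7L2 was called in none (0.0608 to 0.38). PDGFC had the opposite sign with library totals (−0.019) and with single bears left out it ran from −0.0019 (without bear 1316) to 0.21 (without bear 1317). PDGFD, PDGFRA and PDGFRB were each called in 1 to 3 alternatives, as given above, and the cause was not tested. With the bear as a replicate block 5 members fell, since PDGFRB was added, and no other member's call changed between the edgeR fits. DESeq2 called 4 members lower without that block and 6 with it, PDGFRB and PDGFD being added. Over all genes it called 3621 lower without the block and 3493 with it. Over all genes, 2077 were called higher and 2077 lower at an adjusted p below 0.01 with the fold limits, against 3386 and 3445 at 0.05, because that rule is stricter by construction. The difference between the changes of PDGFRA and PDGFRB ran from −0.29 to 0.067 with single bears left out, 0.067 without bear 1305 and 0.017 without bear 1512, and that between PDGFC and PDGFD from 0.51 to 0.93. With 5 bears that test cannot go below a p of 0.0625. The planned difference between PDGFA and PDGFB was not run, because PDGFA was not analysed here. Depth limits mainly PI16 and PDGFD in winter, with 52 and 83 reads in their lowest libraries.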
